A study of Homo sapiens with 18 samples.

Results

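Antisense transcripts are RNAs read from the strand opposite a named gene, and their symbols carry the name of that gene followed by -AS and a number. The transcripts described here were the genes of the count table whose symbol ended in -AS1, -AS2 or -AS3, leaving out EPB41L4A-AS1, and whose mean level over all 18 libraries was 1 CPM (counts scaled to 1000000 per library) or more. They numbered 238 of 27781 genes in the table and 20.5% of its 1162 antisense genes, with 230 ending in -AS1 and 8 in -AS2. The mean level over knockdown and scrambled libraries together chose them, so these levels are a description, and the difference between the groups was not used. Just inside the limit lay SEMA6A-AS1 at 1.01 CPM and MYLK-AS1 at 1.00 CPM, and just outside it MCPH1-AS1 at 0.989 CPM and CCNT2-AS1 at 0.982 CPM. The 923 antisense genes under the limit included 307 without a count in any library.

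The cells were K562, a line of human chronic myeloid leukemia cells with the BCR-ABL1 fusion. In the circPCMTD1 knockdown group they had received antisense gapmers, short oligonucleotides that direct RNase H to cut a paired RNA, against the junction that closes the circular RNA of the PCMTD1 gene. The scrambled group had received gapmers of scrambled sequence, and all cells were collected 48 hours later. Each group held 9 libraries of rRNA-depleted total RNA, 3 technical libraries for each of 3 biological replicates. The sample descriptions call both agents siRNA, while the treatment labels call them gapmers. Biological replicates were taken to follow the first number of the library names, which the labels do not state, and the 3 libraries of a replicate were summed. All samples came from 1 cell line, and no untransfected cells were analysed here.

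Antisense transcripts are a mixed class. Some start beside the promoter of a coding gene and run away from it, some start inside the gene and run through its promoter, and others meet it only at its far end. A few have a known job of their own, while many are short-lived nuclear RNAs that the nuclear exosome removes, and the act of transcribing them can also affect the opposite gene. Because both strands of the same DNA are read, an antisense RNA and its partner gene can share exon sequence in opposite orientation.

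Libraries held 19118533 to 29432699 counts and summed replicates 63851576 to 76087774. The host gene PCMTD1, counted over circular and linear RNA together, was at 12.6, 11.7 and 12.5 CPM in knockdown replicates and at 20.03, 19.8 and 21.9 CPM in scrambled replicates. Its log2 fold change (knockdown over scrambled) was -0.74 (SE 0.052), at an adjusted p of 7.57e-10 by the quasi-likelihood test of edgeR. A two-sided exact permutation test gave p = 0.1, the smallest p that 3 against 3 samples allow. The labels call the cells lymphoblasts. All 15 erythroid and K562 markers were at 1 CPM or more, and their sum was 16522 to 17454 CPM in knockdown replicates and 15781 to 16121 CPM in scrambled replicates. Of 6 T-lymphoid markers 1, CD3D, reached 1 CPM, with CD5 at 0. The sum of these 6 was 6.86 to 7.04 CPM in knockdown and 4.66 to 5.24 CPM in scrambled replicates. Of 5 B-lymphoid markers none reached 1 CPM, with MS4A1 at 0. The sum of those 5 was 0.973 to 1.10 CPM in knockdown and 0.516 to 0.610 CPM in scrambled replicates. Of 4 monocyte markers LYZ and ITGAM reached 1 CPM, and the sum of the 4 was 49.0 to 49.5 CPM in knockdown and 40.0 to 42.0 CPM in scrambled replicates. All 4 marker sums were thus higher in knockdown replicates, but not all of their genes were. LYZ carried the monocyte sum, while ITGAM was at 3.04, 2.98 and 2.53 CPM in knockdown replicates and at 3.45, 3.71 and 3.82 CPM in scrambled replicates, and CD14 and CSF1R were also lower in knockdown replicates on average. Of the erythroid genes ALAS2, TAL1 and GYPB were lower in every knockdown replicate than in any scrambled one. The part of these markers in the results below was not tested. In such bulk RNA, fewer cells of a type and less RNA per cell cannot be told apart.

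The counts of the class were spread over many transcripts. Together the 238 transcripts held 0.224% of all counts. Their summed level was 2221, 2228 and 2229 CPM in knockdown replicates and 2232, 2241 and 2261 CPM in scrambled replicates. The knockdown sums all lay below the scrambled sums, by a margin that was small beside the sums themselves. Single transcripts had a median mean level of 3.60 CPM and 58 were under 2 CPM, while 32 reached 20 CPM and 8 reached 50 CPM. The 10 transcripts with the most counts (FGD5-AS1, TP73-AS1, PROSER2-AS1, TTN-AS1, OIP5-AS1, CCDC144NL-AS1, EMC3-AS1, TMEM132D-AS1, WAC-AS1 and VPS9D1-AS1) made up 29.96% of the class. CPM favours long RNAs, so levels were compared between genes per kilobase of exon. On that scale KMT2E-AS1 was highest at 28.7 CPM per kb, followed by VPS9D1-AS1 at 25.4, FGD5-AS1 at 24.8, PROSER2-AS1 at 23.5 and TMEM132D-AS1 at 22.1 CPM per kb. TTN-AS1, spread over many exons opposite the titin gene, was at 3.24 CPM per kb.

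Of those 10 abundant transcripts 0 were called by edgeR's quasi-likelihood test, where a call is an adjusted p below 0.05 over all genes tested, 0 by DESeq2, and 3 had an unadjusted p below 0.05 in edgeR. FGD5-AS1 was at 126, 127 and 130 CPM in knockdown replicates and at 123, 126 and 131 CPM in scrambled replicates, with a log2 fold change of 0.01. The groups overlapped over nearly their whole range. TP73-AS1 was at 95.4, 95.1 and 91.8 CPM in knockdown replicates and at 97.3, 95.8 and 96.6 CPM in scrambled replicates. Its groups lay narrowly apart, with a log2 fold change of -0.04 and an adjusted p of 0.443. PROSER2-AS1 was at 79.4, 81.9 and 76.9 CPM in knockdown replicates and at 75.5, 75.5 and 72.8 CPM in scrambled replicates, a log2 fold change of 0.09 with an adjusted p of 0.0598. TTN-AS1 was at 66.2, 69.5 and 70.7 CPM in knockdown replicates and at 66.1, 64.5 and 65.1 CPM in scrambled replicates, a log2 fold change of 0.08 with an adjusted p of 0.116. In both of these the knockdown replicates were the higher ones. TTN-AS1 shared 55.1% of its exon bases with titin exons on the other strand, and titin itself was at 0.715 CPM in knockdown and 0.853 CPM in scrambled replicates on average. VPS9D1-AS1 had a log2 fold change of 0.08, EMC3-AS1 and TMEM132D-AS1 of 0.03 each, and CCDC144NL-AS1 and WAC-AS1 of -0.04 each. The partners of these 5 were not called or, for TMEM132D, too low to test. CCDC144NL-AS1 has near-copies in the genome, so its count is uncertain.

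OIP5-AS1, also known as Cyrano, is the transcript of this group with the best-known function: a site in it pairs with the microRNA miR-7 almost along its full length and leads to the destruction of that microRNA. It was at 56.3, 57.7 and 61.8 CPM in knockdown replicates and at 58.4, 59.5 and 59.9 CPM in scrambled replicates. The scrambled values fell within the range of the knockdown values, and the log2 fold change was -0.02 (SE 0.036, adjusted p 0.785). Its partner OIP5, a centromere protein gene, was at 22.2, 21.6 and 23.3 CPM in knockdown replicates and at 24.1, 23.9 and 24.8 CPM in scrambled replicates, with an adjusted p of 0.0557. The miRNA sequence (RefSeq, GRCh38.p14, chr9:83969811-83969834, minus strand) and the site in the OIP5-AS1 transcript (GENCODE release 29, bases 2869 to 2894 of 8829) are shown because the site is what the RNA is known for, with the seed bases and their match in capitals. Of 24 miRNA bases 23 could pair, which leaves 3 of the 26 bases of the site unpaired. The site was in 1 of 10 annotated OIP5-AS1 transcripts, so a gene count does not measure the RNA that carries it. Mature miR-7 was not measured in these libraries.
hsa-miR-7-5p: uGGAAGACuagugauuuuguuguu
OIP5-AS1 site: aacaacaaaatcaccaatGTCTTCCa

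Across the class, 14 antisense transcripts rose and 18 fell in knockdown cells, 13.4% of the 238. All 238 had passed the count filter, and of the 15678 genes tested 18.6% were called, 11.1% raised and 7.49% lowered. Without scrambled replicate 2 or 3, 7 antisense transcripts rose in either case, and without knockdown replicate 2, 9 rose. The raised share of all genes was also lower in these fits, at 7.49%, 7.78% and 7.88% in that order. In the fit of all replicates the share of lowered antisense transcripts was near that of all genes, while the share of raised ones was below it. The median log2 fold change was -0.02 for antisense transcripts and 0.00 for all genes tested, and 106 antisense transcripts were higher and 132 lower in knockdown cells. Changes ran from -0.65 to 0.48, and SEs from 0.030 to 0.187. Replicate ranges lay apart for 83 antisense transcripts, 43 above and 40 below, or 34.9% against 34.6% of all genes tested. In the plot of level against change the called transcripts form a band below zero at middle levels, and the largest changes stand at the low end.

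**Figure D1:**
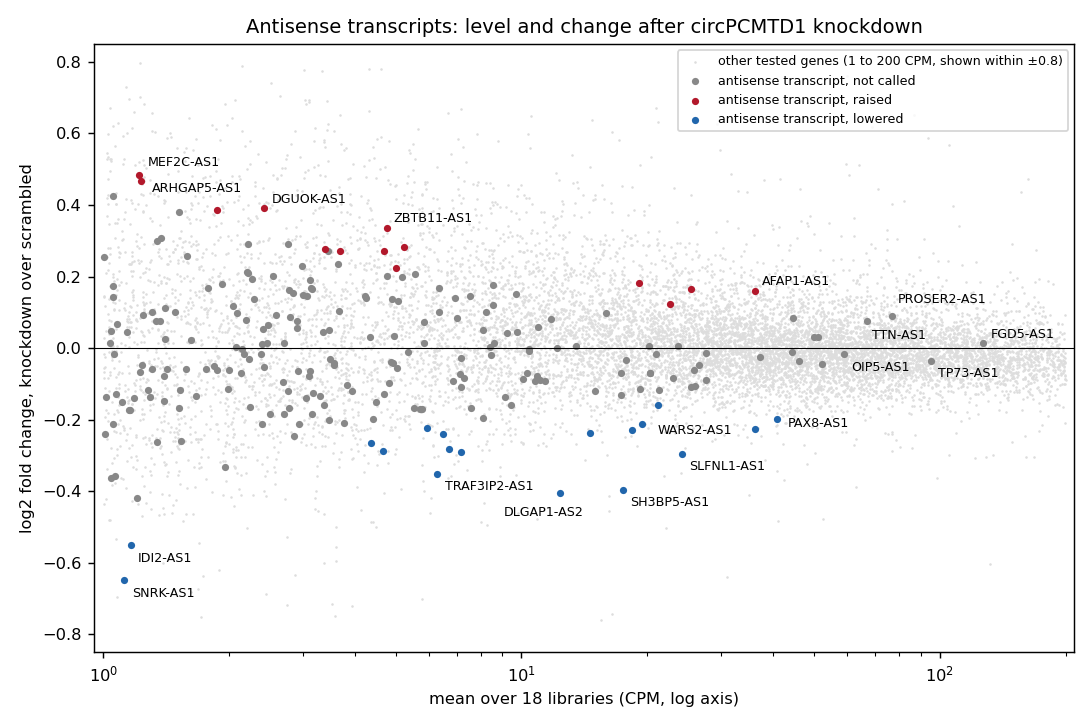
Mean level over 18 libraries (CPM, log axis) against log2 fold change, knockdown over scrambled, for 238 antisense transcripts (red raised, blue lowered, grey not called) over other tested genes (pale dots). Called transcripts run from -0.65 for SNRK-AS1 to 0.48 for MEF2C-AS1, while FGD5-AS1, the most abundant, lies at 0.01.

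Calls were also counted by level. Of 141 antisense transcripts at 1 to 5 CPM, 8 rose and 4 fell, while 319 of the 2194 tested genes in that range rose and 111 fell, or 19.6% called. Of 65 at 5 to 20 CPM, 3 rose and 10 fell, while 554 of 2797 genes rose and 168 fell, or 25.8% called. Of 32 at 20 CPM or more, 3 rose and 4 fell, while 757 of 7683 genes rose and 851 fell, or 20.9% called. Counts of antisense transcripts in each range were small, and neither the difference between ranges nor that from all genes was tested. The median absolute log2 fold change of called antisense transcripts was 0.36 at 1 to 5 CPM, against 0.44 for called genes at large in that range, 0.24 against 0.24 at 5 to 20 CPM, and 0.16 against 0.14 at 20 CPM or more.

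The 2 largest falls were in SNRK-AS1 and IDI2-AS1, which met the level limit through the scrambled libraries, so the choice of transcripts by mean level can favour such falls. SNRK-AS1, opposite the gene of a sucrose non-fermenting related kinase (chr3:43346919-43351962 in GRCh38.p14), was at 0.900, 0.859 and 0.865 CPM in knockdown replicates and at 1.40, 1.19 and 1.53 CPM in scrambled replicates. Its log2 fold change was -0.65 (SE 0.153, adjusted p 0.00443). IDI2-AS1 (chr10:1022637-1044201), which overlaps the isopentenyl diphosphate isomerase genes IDI2 and IDI1, was at 0.914, 1.00 and 0.926 CPM in knockdown replicates and at 1.38, 1.40 and 1.38 CPM in scrambled replicates. Its log2 fold change was -0.55 (SE 0.143, adjusted p 0.00861). The replicates lay apart for both. SNRK-AS1 shared 56.0% and IDI2-AS1 57.7% of its exon bases with exons on the other strand. Reads from such stretches cannot be assigned without the strand setting of the counting, which is not given in the sources used here. SNRK was at 26.2 CPM in knockdown and 26.05 CPM in scrambled replicates on average and was not called, and IDI2 was at 0.0558 CPM in knockdown and 0.103 CPM in scrambled replicates, too low to test.

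More deeply covered were DLGAP1-AS2 and SH3BP5-AS1. DLGAP1-AS2 (chr18:3603737-3610089) lies within DLGAP1, a gene for a postsynaptic scaffold protein, and shares no exon base with it. It was at 10.4, 10.4 and 11.1 CPM in knockdown replicates and at 14.4, 14.3 and 13.6 CPM in scrambled replicates. The fold change was -0.41 on the log2 scale (SE 0.053, adjusted p 1.1e-05), and DLGAP1 itself was at 0.404 CPM in knockdown and 0.345 CPM in scrambled replicates. SH3BP5-AS1 (chr3:15254184-15264498) meets the 3′ end of SH3BP5, which encodes an exchange factor for RAB11. It was at 14.2, 15.4 and 15.8 CPM in knockdown replicates and at 19.9, 20.2 and 19.7 CPM in scrambled replicates. Here the log2 fold change was -0.40 (SE 0.048, adjusted p 4.75e-06), the smallest of the class, while SH3BP5, at 30.6 CPM in knockdown and 29.2 CPM in scrambled replicates, was not called. All knockdown replicates of both transcripts lay below all scrambled replicates.

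SLFNL1-AS1 (chr1:41014590-41043890), opposite a schlafen-like gene and SCMH1, was at 22.2, 22.1 and 20.8 CPM in knockdown replicates and at 26.9, 26.5 and 26.6 CPM in scrambled replicates, a log2 fold change of -0.30 with an adjusted p of 2.73e-05. TRAF3IP2-AS1 (chr6:111483472-111602295), near the gene of an adaptor of the interleukin-17 receptor, was at 5.81, 5.33 and 5.47 CPM in knockdown replicates and at 7.21, 7.14 and 6.84 CPM in scrambled replicates, a log2 fold change of -0.35 with an adjusted p of 0.000705. The groups did not overlap for either one. WARS2-AS1 (chr1:119140396-119275973), which starts beside the mitochondrial tryptophanyl-tRNA synthetase gene, was at 33.7, 32.4 and 33.7 CPM in knockdown replicates and at 38.6, 38.8 and 39.4 CPM in scrambled replicates. Its log2 fold change was -0.23 with an adjusted p of 0.000116. LHX4-AS1, named after a LIM homeobox gene, was at 13.98, 12.997 and 13.2 CPM in knockdown replicates and at 15.7, 15.4 and 16.3 CPM in scrambled replicates, a log2 fold change of -0.24 with an adjusted p of 0.00177. The partner genes LHX4 and SLFNL1 were under 1 CPM in every replicate.

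The other named falls were of similar size. NR2F2-AS1, at the gene of the nuclear receptor COUP-TFII, was at 5.94, 6.11 and 7.26 CPM in knockdown replicates and at 7.85, 7.92 and 7.81 CPM in scrambled replicates. NPPA-AS1, named after the atrial natriuretic peptide gene, was at 4.16, 3.92 and 4.55 CPM in knockdown replicates and at 5.07, 5.63 and 4.70 CPM in scrambled replicates. The log2 fold change was -0.29 for each of these. PCBP1-AS1 (log2 fold change -0.28), at the gene of a poly(C)-binding protein, ADGRL1-AS1 (-0.27), at a latrophilin receptor gene, and TPT1-AS1 (-0.24), at the gene of translationally controlled tumor protein, also fell. So did SLC25A25-AS1 (-0.23), at a mitochondrial ATP-magnesium/phosphate carrier gene, and STARD7-AS1 (-0.22), at the gene of a phosphatidylcholine carrier. The other 3 falls, in GABPB1-AS1 (-0.21), PAX8-AS1 (-0.20) and KMT2E-AS1 (-0.16), were smaller than the 15 largest, and these transcripts are named here after their values were seen. GABPB1 encodes a subunit of the ETS-family factor GABP, PAX8 a thyroid and kidney transcription factor and KMT2E a chromatin protein. In all 18 lowered transcripts the knockdown replicates lay below the scrambled ones.

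**Figure D2:**
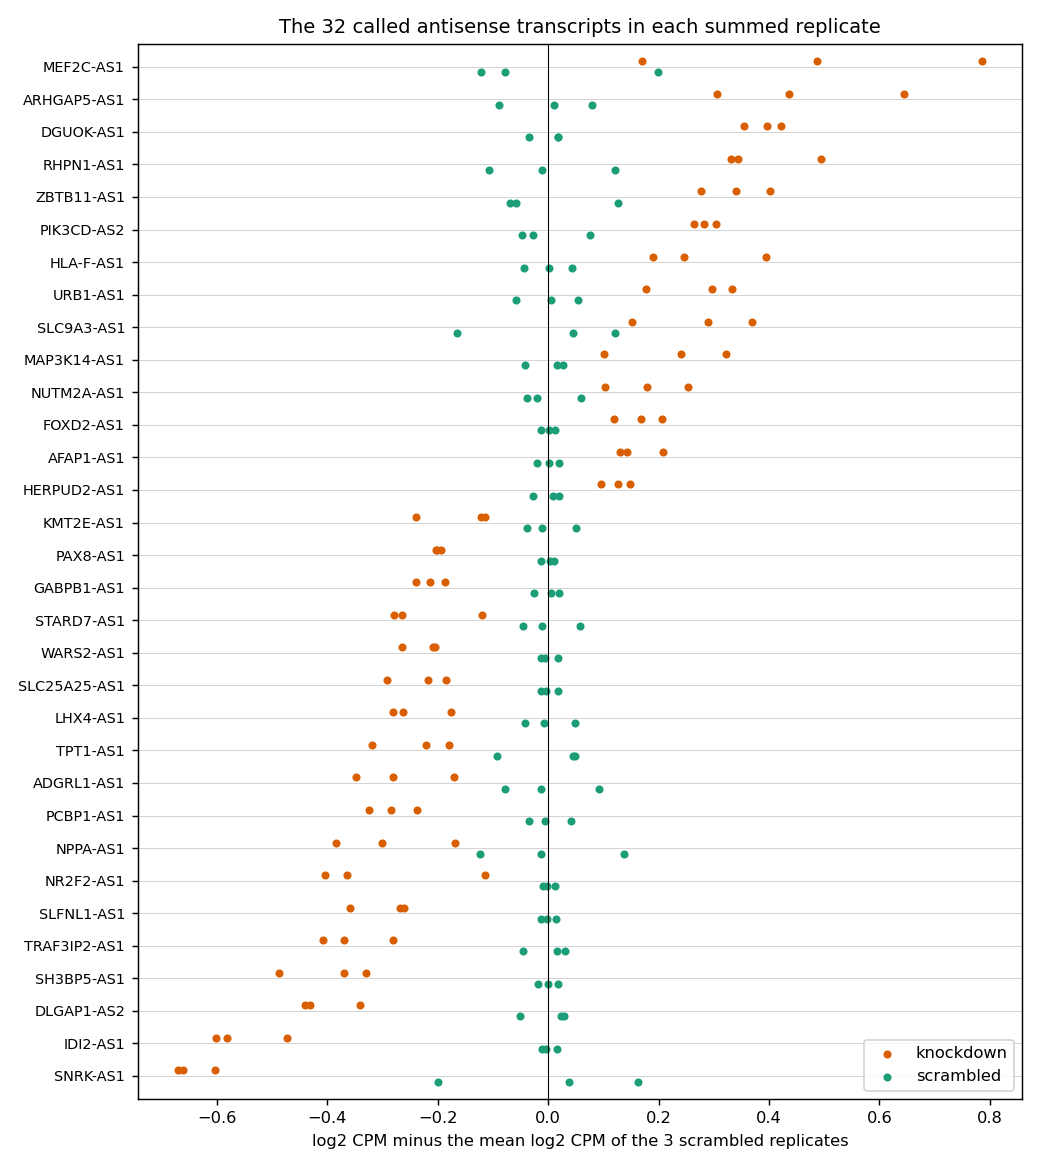
The 32 called antisense transcripts in each of 3 knockdown (orange) and 3 scrambled (green) summed replicates, as log2 CPM minus the mean log2 CPM of the scrambled replicates. Every lowered transcript and 13 of 14 raised ones have replicates that do not overlap between groups, and MEF2C-AS1 overlaps.

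The 2 largest rises were in MEF2C-AS1 and ARHGAP5-AS1, also near the level limit. Both lay about the limit in scrambled replicates and above it in every knockdown replicate. The choice of transcripts by mean level can therefore favour such rises too. MEF2C-AS1 (chr5:88883330-89467581), next to a transcription factor gene active in muscle, heart and blood, was at 1.13, 1.41 and 1.73 CPM in knockdown replicates and at 1.15, 0.950 and 0.922 CPM in scrambled replicates. Its log2 fold change was 0.48 (SE 0.165, adjusted p 0.044), and the lowest knockdown replicate lay below the highest scrambled one. ARHGAP5-AS1 (chr14:32075419-32076699), at the start of the gene ARHGAP5, was at 1.27, 1.39 and 1.61 CPM in knockdown replicates and at 0.966, 1.03 and 1.09 CPM in scrambled replicates, a log2 fold change of 0.47 with an adjusted p of 0.0287. DGUOK-AS1 (chr2:73957967-73981439), which reaches the end of the mitochondrial deoxyguanosine kinase gene, was at 2.67, 2.80 and 2.75 CPM in knockdown replicates and at 2.04, 2.11 and 2.11 CPM in scrambled replicates. The log2 fold change was 0.39 (SE 0.100, adjusted p 0.00777), and replicates within each group were close together. ZBTB11-AS1 (chr3:101676430-101679217), at the start of a zinc finger gene, was at 5.54, 5.31 and 5.08 CPM in knockdown replicates and at 4.58, 3.997 and 4.03 CPM in scrambled replicates, a log2 fold change of 0.34 with an adjusted p of 0.00431. The partner genes ARHGAP5, DGUOK and ZBTB11 were not called.

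Among the other raised transcripts, RHPN1-AS1, beside the rhophilin 1 gene on chromosome 8, had a log2 fold change of 0.39. PIK3CD-AS2, within the gene of the delta catalytic subunit of PI3-kinase, and HLA-F-AS1, at a class I MHC gene, had 0.28 each. URB1-AS1, beside a ribosome biogenesis gene, and SLC9A3-AS1, at a sodium-proton exchanger gene, had 0.27 each. MAP3K14-AS1, at the gene of the NF-kB-inducing kinase, had 0.22. Adjusted p for these 6 lay between 0.00768 for PIK3CD-AS2 and 0.0441 for SLC9A3-AS1. The rises with the most counts were the smallest. AFAP1-AS1 (chr4:7754090-7778928), known for high levels in several carcinomas, was at 37.4, 37.8 and 39.6 CPM in knockdown replicates and at 33.8, 34.7 and 34.3 CPM in scrambled replicates, a log2 fold change of 0.16 with an adjusted p of 0.00366. FOXD2-AS1 (chr1:47432133-47434641) was at 27.6, 26.9 and 26.02 CPM in knockdown replicates and at 23.98, 24.2 and 23.7 CPM in scrambled replicates, also 0.16, with an adjusted p of 0.00583. Neither overlapped between groups, and AFAP1 and FOXD2 were not called. NUTM2A-AS1 had a log2 fold change of 0.18 and HERPUD2-AS1 of 0.12. NUTM2A-AS1 has a near copy, NUTM2B-AS1, between which reads could be split, so its value is uncertain.

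Single libraries separated the groups in 7 of the 238 transcripts, all lowered. Of the 15678 genes tested 5.12% were separated by libraries, 433 with knockdown above and 370 with knockdown below. The technical libraries of a replicate are not independent samples, and no difference from all genes was tested. The 7 transcripts were TRAF3IP2-AS1, SH3BP5-AS1, SLC25A25-AS1, GABPB1-AS1, SLFNL1-AS1, WARS2-AS1 and PAX8-AS1. PAX8-AS1 (chr2:113235527-113267023) ran from 34.9 CPM through a median of 38.0 CPM to 40.1 CPM over 9 knockdown libraries, and from 41.9 CPM through 43.6 CPM to 45.6 CPM over 9 scrambled libraries. WARS2-AS1 ran from 31.4 CPM through a median of 33.6 CPM to 35.6 CPM over knockdown libraries and from 37.1 CPM through 39.0 CPM to 42.0 CPM over scrambled libraries. For SLFNL1-AS1 the highest knockdown library was at 23.5 CPM and the lowest scrambled library at 24.9 CPM. GABPB1-AS1 was separated most narrowly, with a highest knockdown library at 19.1 CPM and a lowest scrambled library at 19.2 CPM. The plot of these libraries shows the libraries of each replicate side by side.

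**Figure D3:**
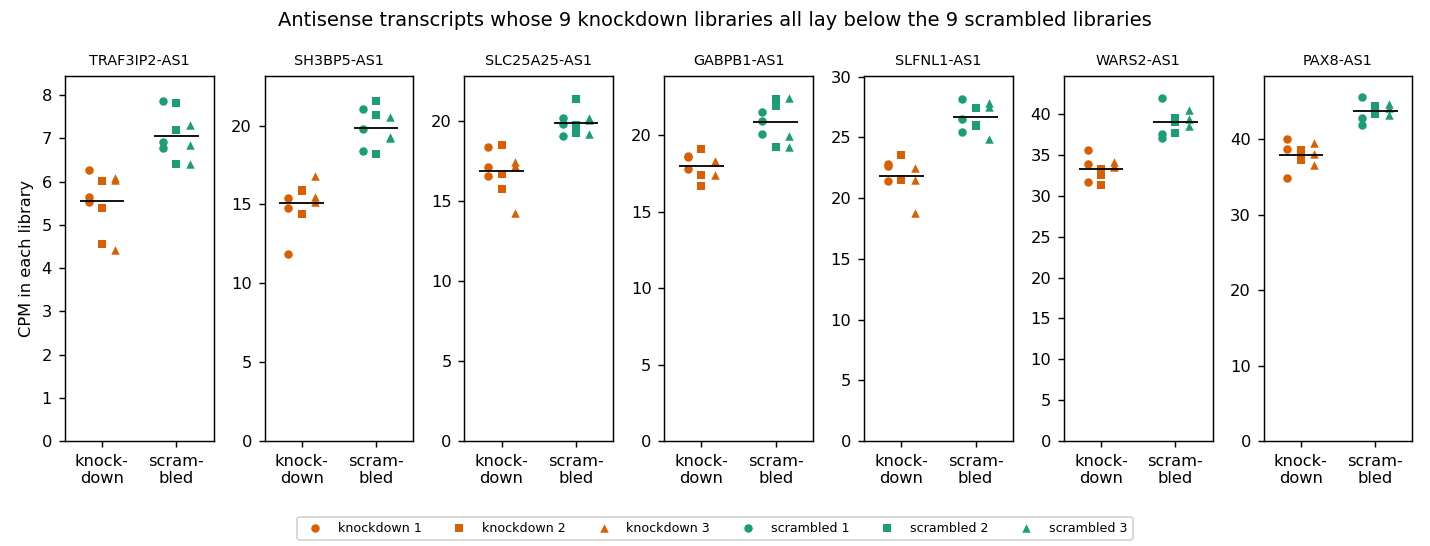
CPM in each of 9 knockdown (orange) and 9 scrambled (green) libraries for 7 antisense transcripts, with marker shapes for replicates 1 to 3 and bars at the group means. Every knockdown library lies below every scrambled library in each panel, most narrowly for GABPB1-AS1 (19.1 against 19.2 CPM).

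Calls near the threshold depended on single replicates. Of the 32 called transcripts, 18 were still called when each replicate was left out in turn: DGUOK-AS1, ZBTB11-AS1, PIK3CD-AS2, FOXD2-AS1 and AFAP1-AS1 among raised ones, and SNRK-AS1, IDI2-AS1, DLGAP1-AS2, SH3BP5-AS1, TRAF3IP2-AS1, SLFNL1-AS1, NR2F2-AS1, PCBP1-AS1, LHX4-AS1, SLC25A25-AS1, WARS2-AS1, GABPB1-AS1 and PAX8-AS1 among lowered ones. The other 14 lost their call in edgeR's quasi-likelihood test in at least 1 such fit. The highest adjusted p was 0.184 for MEF2C-AS1 (without knockdown replicate 3), 0.107 for RHPN1-AS1 (without knockdown replicate 2) and 0.235 for SLC9A3-AS1 (without scrambled replicate 2). Without scrambled replicate 1 it was 0.111 for ARHGAP5-AS1, 0.16 for MAP3K14-AS1, 0.0748 for NUTM2A-AS1, 0.14 for STARD7-AS1 and 0.117 for KMT2E-AS1. Without scrambled replicate 2 it was 0.142 for NPPA-AS1 and 0.0835 for TPT1-AS1. Without scrambled replicate 3 it was 0.108 for HLA-F-AS1, 0.0758 for URB1-AS1, 0.151 for HERPUD2-AS1 and 0.123 for ADGRL1-AS1. In DESeq2, 7 of the 14 raised and 16 of the 18 lowered transcripts were called, with 8.9% of all genes raised and 7.18% lowered. ADGRL1-AS1 (adjusted p 0.0586) and STARD7-AS1 (adjusted p 0.069) were the lowered ones not called there. No log2 fold change of the 32 turned its sign in any alternative run.

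Antisense transcripts were grouped by how they lie to the gene they are named after, using GENCODE release 29, which placed 231 of the 238. The counts of calls in these groups stand beside 11.1% raised and 7.49% lowered among all genes tested, and no difference between groups was tested. In 99 pairs the 5′ parts of the genes overlapped, and 4 of these transcripts rose and 7 fell, or 11.1% called. In 59 pairs 1 gene lay inside the other, with 3 rises and 4 falls, or 11.9% called. In 54 pairs the 3′ parts overlapped, with 4 rises and 5 falls, or 16.7% called. Both directions thus occurred in each large class. Of 13 divergent transcripts, which start within 1 kb of the partner on the other strand and run away from it, RHPN1-AS1 and URB1-AS1 rose, and the other 11 had log2 fold changes between -0.13 (PRKCQ-AS1) and 0.15 (TRIM52-AS1). In 2 pairs without overlap the starts lay over 1 kb apart, and of these FOXD2-AS1 rose. In 2 pairs without overlap the ends faced each other, and 2 transcripts lay on the same strand as the gene they are named after. Neither of these last groups held a call. Of the 7 transcripts without a position, NPPA-AS1 and LHX4-AS1 fell. Shared exon sequence was common, with any overlap in 185 transcripts, a median of 8.22% of exon bases and more than 50% in 18. Of 48 transcripts with no opposite-strand exon overlap 4 rose and 2 fell, or 12.5% called. Of 125 with up to 25% 8 rose and 10 fell, or 14.4% called, and of 60 with more than 25% 2 rose and 4 fell, or 10.0% called.

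Partner genes were counted in the same fit. Of 234 distinct partners 212 were tested, and 17 rose and 27 fell, which is 20.8% of those tested. Of all genes tested 18.6% were called, 11.1% raised and 7.49% lowered, and the difference was not tested. Without scrambled replicate 1, 10 partners rose and 8 fell, and without scrambled replicate 2, 12 rose and 10 fell. Without scrambled replicate 3, 14 rose and 17 fell, without knockdown replicate 2, 11 rose and 20 fell, and without knockdown replicate 3, 34 rose and 48 fell. Among all genes tested the shares were 7.09% raised and 3.95% lowered without scrambled replicate 1, and 7.49% and 3.92% without scrambled replicate 2. They were 7.78% and 4.63% without scrambled replicate 3, 7.88% and 5.06% without knockdown replicate 2, and 15.6% and 14.3% without knockdown replicate 3. The partner had a median of 6.63 times the CPM of its antisense transcript, and in 44 of 214 pairs the antisense transcript had more counts. Among 28 called antisense transcripts with a tested partner, the partner's log2 fold change had the same sign in 17, in 7 of 13 raised and 10 of 15 lowered. Of all 212 tested partners 98 were higher and 114 lower in knockdown cells, and whether signs went together was not tested. Antisense transcript and partner were both called in 9 pairs, which the plot of partner change against antisense change marks.

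**Figure D4:**
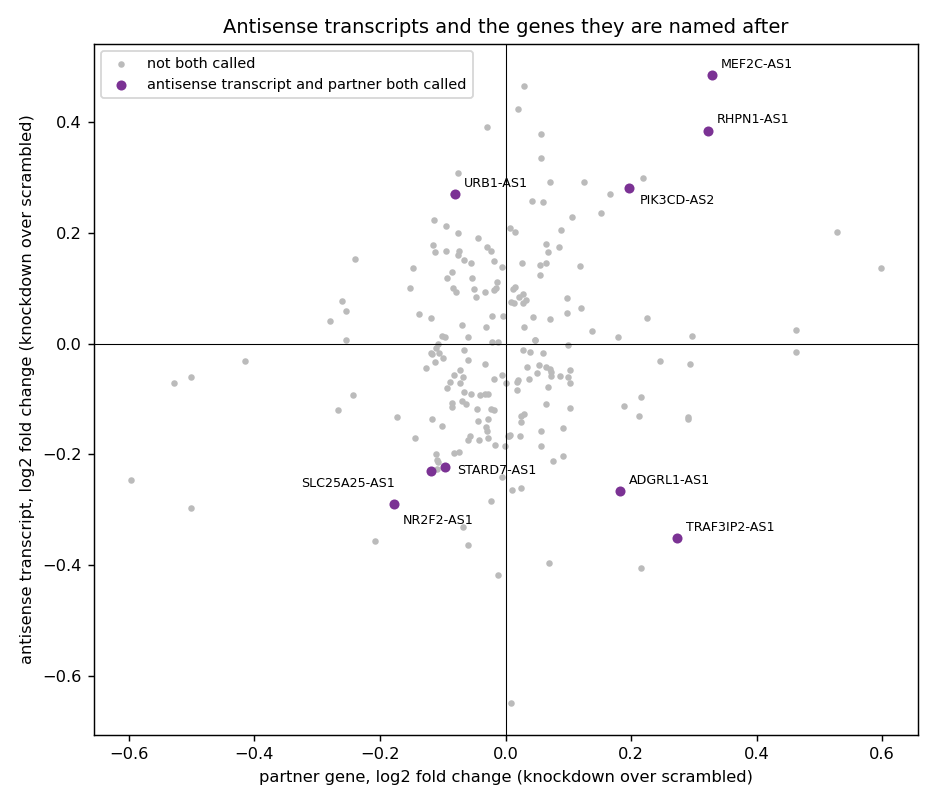
Log2 fold change (knockdown over scrambled) of 214 antisense transcripts on the vertical axis against that of the partner gene on the horizontal axis, with 9 pairs in which both were called in purple. In 6 of these pairs both moved the same way, and TRAF3IP2-AS1, ADGRL1-AS1 and URB1-AS1 moved against their partner.

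In 3 pairs antisense transcript and partner moved in opposite directions. TRAF3IP2 was at 9.05, 8.98 and 10.3 CPM in knockdown replicates and at 7.77, 8.26 and 7.36 CPM in scrambled replicates, a rise of 0.27 on the log2 scale with an adjusted p of 0.00548, while TRAF3IP2-AS1 fell by 0.35. ADGRL1 was at 47.5, 49.5 and 45.7 CPM in knockdown replicates and at 42.2, 41.7 and 41.8 CPM in scrambled replicates, a rise of 0.18 with an adjusted p of 0.00101, while ADGRL1-AS1, at 3.73, 3.91 and 4.21 CPM in knockdown and 4.70, 4.49 and 5.06 CPM in scrambled replicates, fell by 0.27. URB1 was at 399, 401 and 381 CPM in knockdown replicates and at 421, 416 and 411 CPM in scrambled replicates, a fall of 0.08 with an adjusted p of 0.0301, while URB1-AS1, at 5.37, 5.23 and 4.82 CPM in knockdown and 4.28, 4.42 and 4.09 CPM in scrambled replicates, rose by 0.27. The log2 ratio of antisense transcript to partner differed by -0.63 for TRAF3IP2, -0.45 for ADGRL1 and 0.35 for URB1 (knockdown minus scrambled). For these 3 and for SLC25A25 (-0.11) the 3 knockdown ratios lay outside the 3 scrambled ratios. The pairs were chosen because both members were called, so these ratios are a description and no test of them is given. TRAF3IP2-AS1 shared no exon base with TRAF3IP2 in this annotation and URB1-AS1 none with URB1, while ADGRL1-AS1 shared 14.8% with ADGRL1.

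In the other 6 pairs both members moved the same way. MEF2C was at 80.5, 83.1 and 86.0 CPM in knockdown replicates and at 67.7, 64.5 and 66.4 CPM in scrambled replicates, a log2 fold change of 0.33 with an adjusted p of 3.61e-07, beside 0.48 for MEF2C-AS1. RHPN1 was at 6.47, 6.92 and 6.04 CPM in knockdown replicates and at 5.61, 4.99 and 4.91 CPM in scrambled replicates, a log2 fold change of 0.32, beside 0.39 for RHPN1-AS1, which was at 2.06, 2.28 and 2.04 CPM in knockdown and 1.76, 1.503 and 1.61 CPM in scrambled replicates. PIK3CD was at 43.2, 42.9 and 40.0 CPM in knockdown replicates and at 36.9, 36.5 and 36.7 CPM in scrambled replicates, a log2 fold change of 0.20, beside 0.28 for PIK3CD-AS2. In each of these 3 genes the knockdown replicates were the higher ones. Among the falls, NR2F2 had a log2 fold change of -0.18, SLC25A25 of -0.12 and STARD7 of -0.10. Apart from SLC25A25-AS1, the ratios of antisense transcript to partner overlapped between the groups in these pairs, with differences from -0.13 (STARD7-AS1) to 0.15 (MEF2C-AS1).

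Promoters were read from RefSeq tables (GRCh38.p14), from 250 bases before to 50 bases after each gene start. A promoter was listed for 183 of the 238 transcripts. These held a median of 24 CpG dinucleotides and 64.3% GC, against 14 and 58.3% over 27305 listed promoters. The 11 raised transcripts with a promoter listed had a median of 28 CpG and 69.7% GC, and the 14 lowered ones 14 CpG and 57.8% GC. The letters GGGCGG, the core of the Sp1 motif, which itself holds a CpG, were found on either strand in 8 of the 11 raised and 5 of the 14 lowered promoters, against 58.5% of listed antisense promoters and 44.6% of all promoters. CCAAT was in 4 of the 11 raised and 6 of the 14 lowered promoters and in 35.7% of all promoters. TATAAA was in 0 of these 25 promoters and in 11.95% of all promoters. Over the 14 lowered promoters the CpG count ran from 1 (SLFNL1-AS1) to 42 (STARD7-AS1). Over the 11 raised ones it ran from 16 (FOXD2-AS1) to 61 (SLC9A3-AS1). These are descriptions of the DNA, and no test was made of them. Promoters of 4 called transcripts are shown as examples, on the strand of the transcript, 5′ to 3′, with each CG in capitals. They belong to the 2 largest falls and 2 largest rises whose listed promoter met no annotated untranslated exon. That limit left out the larger rises MEF2C-AS1 with 30 CpG and ARHGAP5-AS1 with 28. The lowered promoters with the most CpG, such as STARD7-AS1 with 42 and TPT1-AS1 with 38, belonged to smaller falls. The 4 therefore do not stand for the lowered or raised transcripts at large. IDI2-AS1 (chr10:1022387-1022686, plus strand) had 6 CpG, DLGAP1-AS2 (chr18:3603487-3603786, plus strand) 3, ZBTB11-AS1 (chr3:101676180-101676479, plus strand) 27 and PIK3CD-AS2 (chr1:9687525-9687824, minus strand) 22.
IDI2-AS1 (lowered): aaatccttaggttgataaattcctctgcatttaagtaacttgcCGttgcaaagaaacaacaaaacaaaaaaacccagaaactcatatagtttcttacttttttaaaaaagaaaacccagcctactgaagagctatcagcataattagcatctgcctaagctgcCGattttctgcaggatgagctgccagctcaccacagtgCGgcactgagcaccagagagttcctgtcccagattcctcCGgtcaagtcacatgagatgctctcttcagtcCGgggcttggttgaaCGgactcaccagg
DLGAP1-AS2 (lowered): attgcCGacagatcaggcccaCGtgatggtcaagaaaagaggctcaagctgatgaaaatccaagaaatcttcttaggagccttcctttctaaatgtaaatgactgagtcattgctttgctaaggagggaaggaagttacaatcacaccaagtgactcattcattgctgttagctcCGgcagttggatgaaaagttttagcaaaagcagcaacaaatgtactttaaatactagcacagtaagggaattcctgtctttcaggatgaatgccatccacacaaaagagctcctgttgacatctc
ZBTB11-AS1 (raised): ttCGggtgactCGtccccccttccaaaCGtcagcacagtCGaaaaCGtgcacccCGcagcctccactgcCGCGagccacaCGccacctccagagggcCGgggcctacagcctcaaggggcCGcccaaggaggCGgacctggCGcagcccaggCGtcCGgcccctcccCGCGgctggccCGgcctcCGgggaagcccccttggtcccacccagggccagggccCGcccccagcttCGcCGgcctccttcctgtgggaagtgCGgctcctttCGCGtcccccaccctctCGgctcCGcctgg
PIK3CD-AS2 (raised): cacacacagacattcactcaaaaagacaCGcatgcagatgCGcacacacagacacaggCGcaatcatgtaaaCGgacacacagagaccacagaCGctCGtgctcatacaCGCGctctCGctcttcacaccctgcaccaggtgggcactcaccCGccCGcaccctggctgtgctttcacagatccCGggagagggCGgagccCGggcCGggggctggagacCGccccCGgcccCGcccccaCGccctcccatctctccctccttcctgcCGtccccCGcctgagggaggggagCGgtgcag

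GC content of the transcripts themselves had a median of 51.2% for the 14 raised and 47.9% for 16 lowered antisense transcripts with a value, against 48.2% for the class and 48.6% for all genes tested. Among genes at 5 CPM or more, the 10% with the highest GC content lay at a median of -0.14 and -0.17 (log2) relative to the other knockdown libraries in libraries 3_2 and 3_3, and the 10% with the lowest GC content at 0.10 and 0.12. Medians of the other 7 knockdown libraries lay between -0.07 and 0.07. Without libraries 3_2 and 3_3, 25 antisense transcripts rose and 27 fell, with 16.5% of all genes raised and 15.5% lowered. Of the 14 rises 13 were kept there and of the 18 falls 18, and ARHGAP5-AS1 was the exception (log2 fold change 0.40, adjusted p 0.055). With a correction for GC content 23 rose and 30 fell, with 14.8% of all genes raised and 16.7% lowered, and all 32 calls were kept.

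The share of raised antisense transcripts lay below that of all genes tested in each of 20 alternative ways of processing, between 0 and 12.2% against between 1.00% and 16.5%. The share of lowered ones lay below that of all genes in 11 of 20. The plot of shares by setting shows the antisense points left of the open points throughout for rises, and on both sides of them for falls. Counts ranged from 7 to 29 rises and from 15 to 31 falls outside the test against a 1.2-fold change, which called 0 antisense transcripts, with 3 raised and 5 lowered ones at an unadjusted p below 0.05 in that edgeR test.

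**Figure D5:**
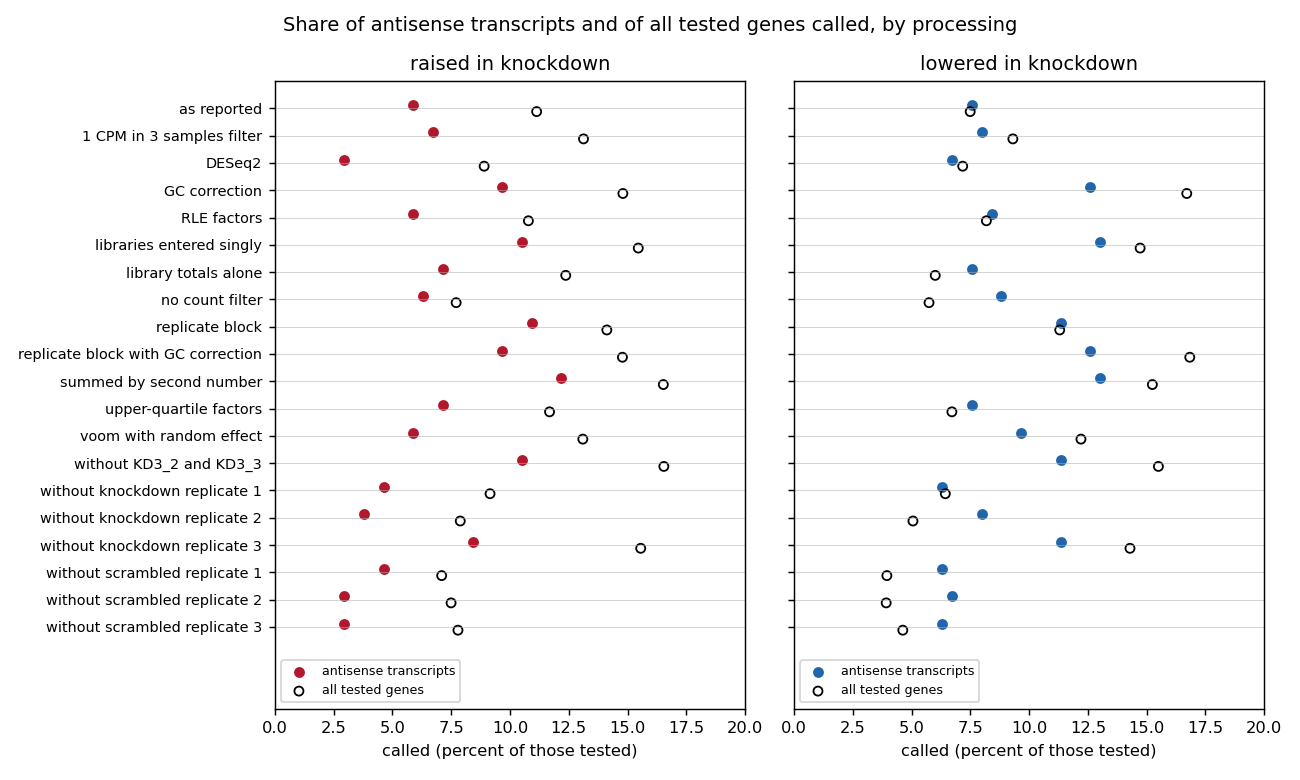
Share of antisense transcripts (filled) and of all tested genes (open) called raised (left) or lowered (right) in knockdown cells, in percent of those tested, for the reported fit and 19 alternatives, the test against a 1.2-fold change left out. Filled points lie left of open points in every line for rises and on either side for falls.

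Other noncoding classes were counted with the same level limit. Of 158 intergenic RNAs with LINC symbols 18 rose and 11 fell, 18.4% of them, with a median log2 fold change of 0.01. Of 74 divergent transcripts with symbols ending in -DT 5 were called, each raised, 6.76% of them, with a median of 0.04. Of 184 antisense transcripts under 1 CPM that passed the filter, 5 rose and 1 fell, or 3.26% called. Of all genes tested 18.6% were called, 11.1% raised and 7.49% lowered. Differences between these classes, or from all genes, were not tested. Of 34 genes for nuclear RNA decay (exosome subunits and cofactors, cap-binding, Integrator, 5′-to-3′ decay and decapping genes) 5 were called, each lowered. These were 14.7% of the list, while 18.6% of all genes tested were called in either direction and 7.49% were lowered. The difference was not tested, and the median log2 fold change of the list was -0.03. The 3 with the smallest p were EXOSC2, an exosome cap subunit, NCBP2, the small cap-binding subunit, and PCF11, a transcription termination factor. EXOSC2 averaged 89.0 ± 2.73 CPM in knockdown and 98.6 ± 3.11 CPM in scrambled replicates (SD, n = 3 each). NCBP2 averaged 59.0 ± 1.58 CPM in knockdown and 64.1 ± 0.729 CPM in scrambled replicates, and PCF11 124 ± 2.68 CPM in knockdown and 133 ± 2.45 CPM in scrambled replicates. Their log2 fold changes were -0.15, -0.12 and -0.10, with adjusted p of 0.00324, 0.012 and 0.0208 in edgeR's quasi-likelihood test, and the other 31 genes included EXOSC10, DIS3 and MTREX at -0.01, -0.01 and -0.04.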

How the data were processed

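Total RNA from 18 K562 libraries was analysed, 9 with circPCMTD1 knockdown and 9 with scrambled gapmers. The authors' steps, per the submitters' processing notes, used GRCh38 with Trim Galore, STAR and featureCounts. Their versions, the annotation and whether counting used strand are not given here, although the labels name a directional kit with rRNA depletion. The deposited table gives raw counts, whole numbers with no scaling, for 27781 gene symbols. Unstranded counting would add reads of an antisense transcript and its partner where exons overlap, and stranded counting would not.

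The 3 technical libraries of each replicate were summed and tested, 3 against 3, with edgeR 4.0.16 under R 4.3.3, using the filter filterByExpr, TMM scaling and a robust quasi-likelihood fit, with Benjamini-Hochberg adjusted p-values over 15678 genes. Calls are at an adjusted p below 0.05. CPM values use TMM-scaled totals, except the level limit, the summed class level and the mean levels, which use library totals. The study names biological replicates but not whether they were separate cultures, and p-values measure only the spread between these samples, which may be technical. Counting error is smallest for the abundant transcripts, and the lowest transcript averaged 68.8 counts per summed replicate.

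Partners were matched by symbol. Positions, exon overlap, kilobases and GC content came from GENCODE release 29 (233 transcripts matched, 2 of them set aside for position), and coordinates (236 matched), promoters and miRNA from RefSeq tables of GRCh38.p14. GC content was known for 96.4% of tested genes. Members and lists were chosen with earlier results of these data known. Named were all called transcripts up to 15 in each direction by size, the 10 with the highest mean CPM, 2 on either side of the level limit, partners of these, PCMTD1, and up to 3 called decay genes by smallest p.

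Alternatives were DESeq2 1.42.0, limma-voom (limma 3.58.1) with the replicate as a random effect, other scaling factors and filters, GC correction (lowess span 0.3), a replicate block, other ways of summing or entering libraries, each replicate left out, removal of knockdown libraries 3_2 and 3_3, and a test against a 1.2-fold change. On simulated counts for knockdown against scrambled, 200 of 15678 genes were changed. The test recovered 64.9% of those changed 1.2-fold, 80.6% changed 1.5-fold and 96.6% changed 2-fold, with 5 false calls among 15478 unchanged genes. The changed genes were drawn from all genes tested, whose median SE in the data was 0.048, against 0.090 for antisense transcripts. Recovery in the class was not measured, and the simulated counts held no GC deviation of single libraries. Python 3.11.15, pandas 2.3.3, numpy 2.4.6, scipy 1.17.1 and matplotlib 3.10.9 were used.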

Additional observations from a re-analysis of the deposited data

Results flagged for a closer look

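In 86 groups of 9 libraries, 5 held a library far from the others by Dixon's test, about the 1 in 20 groups that chance gives. Among knockdown libraries, SH3BP5-AS1 was lowest in library 1_3 at 11.9 CPM, with the next at 14.4 CPM, and SLFNL1-AS1 was lowest in library 3_3 at 18.8 CPM, with the next at 21.4 CPM. Among scrambled libraries, HERPUD2-AS1 was lowest in library 3_3 at 19.1 CPM, with the next at 21.3 CPM. SLC25A25-AS1 was highest in scrambled library 2_2 at 21.4 CPM, with the next at 20.2 CPM. PCMTD1 was highest in scrambled library 3_1 at 24.1 CPM, with the next at 21.3 CPM.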

How the results depend on the processing

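Of 919 alternative values of single named genes, 803 kept their side of the threshold, 98 lost their call and 18 gained one. Where either fit called the gene, 0 turned sign. A sign change of a gene called in neither fit would be counted among the 803. PCMTD1 stayed called throughout (-0.78 to -0.70). Counts moved more. As reported, 14 antisense transcripts rose and 18 fell, of all tested genes 1745 rose and 1175 fell, and of partners 17 rose and 27 fell. DESeq2 raised 7 antisense transcripts. With GC correction the counts were 23 and 30 for antisense transcripts, 2619 lowered among all genes, and 26 and 50 for partners. Libraries entered singly gave 25 and 31, 2036 lowered among all genes and 44 lowered partners. Summed by the second number, they gave 29 and 31, 2389 lowered among all genes, and 33 and 47 partners. Without knockdown libraries 3_2 and 3_3, 25 antisense transcripts were raised, 2426 genes lowered, and 37 and 49 partners called. Against a 1.2-fold change 0 antisense transcripts were called in either direction (3 raised and 5 lowered at an unadjusted p below 0.05), with 157 and 38 among all genes and 2 and 2 partners. Limiting the class to 5 CPM or more left 6 rises. With each replicate left out in turn, rises ran from 7 to 20 and falls from 15 to 27 for antisense transcripts, from 1127 to 2482 and from 623 to 2280 for all genes, and from 10 to 34 and from 8 to 48 for partners. The lowest partner counts came without scrambled replicate 1 and the highest without knockdown replicate 3. Same-numbered replicates did not deviate together in every pair (correlations 0.26, -0.01 and 0.30 over 10478 genes), so the numbers were not taken as pairs. A replicate block gave 26 raised and 27 lowered antisense transcripts, 1772 lowered genes and 44 lowered partners, and with GC correction 23 and 30, 2639, and 54. The causes were not tested. Scaling moved the median of all genes by less than 0.02 (log2). SEs were larger at low levels: the median SE of a log2 fold change was 0.113 for antisense transcripts at 1 to 5 CPM and 0.041 at 20 CPM or more.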
